A study of Mus musculus with 18 samples.

Results

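The ADAMTS proteins (a disintegrin and metalloproteinase with thrombospondin motifs) are secreted zinc proteases that cut the extracellular matrix. The 7 members followed here lie outside the best known cartilage aggrecanases and the procollagen peptidases. These are Adamts7 and Adamts12, Adamts6 and Adamts10, Adamts17, and Adamts16 and Adamts18. They were chosen by name, by matching transcript identifiers to gene symbols, and make up 7 of the 49184 genes with a transcript in the files. All 7 passed the filter on low counts.

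The series measured total RNA of femoral condyle cartilage from the knees of male C57bl6 mice aged 12 weeks, by sequencing after removal of ribosomal RNA. In the injured mice the anterior cruciate ligament of the right knee was ruptured with a single load of 12 N, while its left knee served as the contralateral side. There were 6 naïve libraries, labelled as naïve at day 7, and 3 libraries each of injured and contralateral knees at day 1 and at day 7. Each library was a pool of mice, 4 per sample by the series text (the study's supplement gives other pool sizes for day 1 and naïve mice), and the labels do not tie an injured library to a contralateral one. Per the methods there were 6 naïve mice, whose knees of either side were put into different pools of 2, so that the 6 naïve libraries come from 3 sets of mice if both sides were pooled alike, and not from 6. The labels do not say which naïve libraries share mice. All tests here, the exact permutation tests included, count the libraries as independent, so that p-values against naïve cartilage may be too small. The genotype was the same in all groups, and none carried a transgene. Loading was done under isoflurane with buprenorphine as pain relief, so the contralateral knees come from mice that had both.

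Totals of estimated counts ran from 16074762 to 41794005 per library. The first contralateral library of day 7 stood apart from the rest, because its 10 most abundant genes held 42.5% of its counts against 16.6% to 29.8% in the other 17 libraries. The values of the 7 genes in comparisons that use its group are therefore given with and without it. The label names chondrocytes as the cell type. All 8 chondrocyte markers listed were detected in every library, with Col2a1 the most abundant of them in each naïve and each day 7 injured library, at 2598 to 4988 CPM (counts scaled to a common library size) in naïve libraries and 3614 to 4067 CPM in day 7 injured libraries. Markers of other cell types were detected as well and are given below. In naïve libraries the chondrocyte markers summed to a mean of 4734 CPM. Higher sums were those of erythroid (21350 CPM), fibroblast and synovium (14540 CPM), neutrophil (9343 CPM) and skeletal muscle markers (5246 CPM), and those of all other lists were lower. Such sums over unlike genes are not shares of cells.

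As background, ADAMTS7 and ADAMTS12 share a domain structure with a mucin-like stretch and cut cartilage oligomeric matrix protein (COMP), the thrombospondin of cartilage that is encoded by Comp. ADAMTS6 and ADAMTS10 are a homologous pair linked to fibrillin microfibrils, as is ADAMTS17, and mutations of human ADAMTS10 and ADAMTS17 cause Weill-Marchesani syndromes with short stature and stiff joints. ADAMTS16 and ADAMTS18 form another homologous pair. The proteases are made as inactive precursors that furin-like convertases cut, and sugars are added to their thrombospondin repeats before they leave the cell.

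At day 7, Adamts7, Adamts12, Adamts6, Adamts17 and Adamts16 were higher in injured cartilage than in naïve cartilage, and Adamts10 and Adamts18 did not pass the test. A gene was called if its level differed 1.5-fold or more and the false discovery rate (FDR) did not exceed 0.05 in the quasi-likelihood test of edgeR. By that rule 5 of 7 were called higher and 0 lower, where 10.4% of the 21129 genes tested were called higher and 6.11% lower. The counts were 5 and 0 again against the contralateral knees of day 7, where 9.33% of 21262 genes were called higher and 3.23% lower, and 5 and 0 against injured knees at day 1, where the shares were 9.04% and 6.38%. The comparisons share the day 7 injured libraries. In CPM, for the same 5 genes each day 7 injured library lay above all 15 others, as was so for 11.8% of 21262 genes, while 17.2% lay above all naïve and 18.3% above all contralateral libraries of day 7. In bulk RNA, a change in the share of cells that make a transcript and a change in transcript per cell cannot be told apart.

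**Figure D1:**
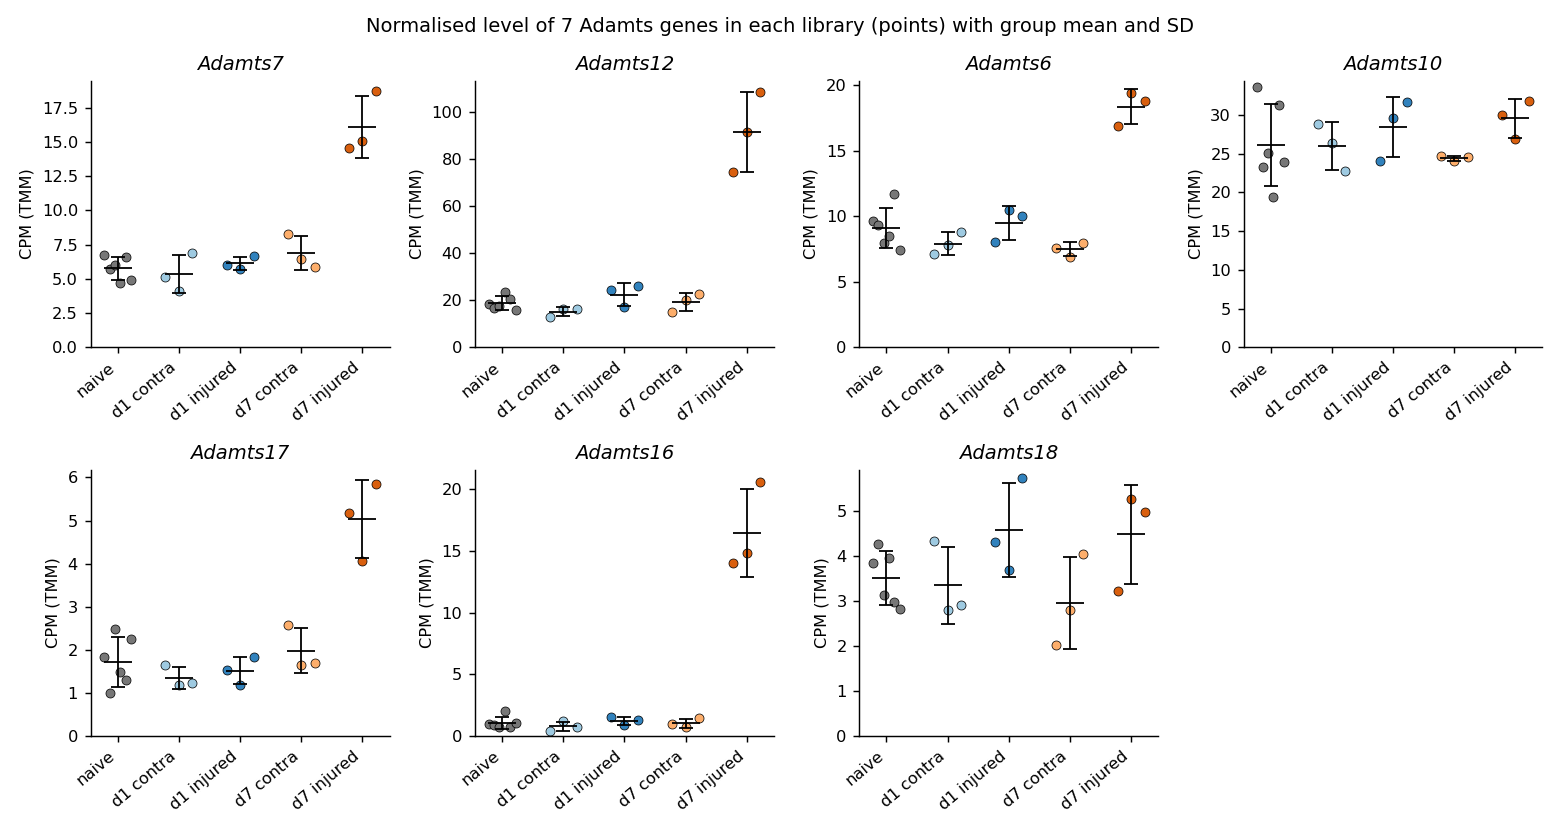
Level of each gene in every library, in CPM after TMM normalization (vertical axes, each starting at 0), by group (horizontal axes; d1 and d7 are days, contra is the contralateral knee). Points are libraries, and bars are the group mean with its SD. The 3 day 7 injured libraries lie above all 15 others for Adamts7, Adamts12, Adamts6, Adamts17 and Adamts16, and among the others for Adamts10 and Adamts18. Of 21262 genes tested, 11.8% lie above all 15 others in this way.

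The promoters of Adamts12, Adamts17 and Adamts18 were held in the RefSeq table used here (assembly GRCm38.p6), and entries for Adamts6, Adamts7, Adamts10 and Adamts16 were missing. They are shown because Adamts12 and Adamts17 rose at day 7 while Adamts18 did not pass the test. Each is the 250 bases before the start site given by RefSeq, which for Adamts12 and Adamts18 is not the GENCODE start used for the gene positions below, 5′ to 3′ on its own strand, at chr15:11064523-11064772 (plus strand) for Adamts12, chr7:66839485-66839734 (plus strand) for Adamts17 and chr8:113848840-113849089 (minus strand) for Adamts18. Capitals mark matches to the motifs searched.
Adamts12: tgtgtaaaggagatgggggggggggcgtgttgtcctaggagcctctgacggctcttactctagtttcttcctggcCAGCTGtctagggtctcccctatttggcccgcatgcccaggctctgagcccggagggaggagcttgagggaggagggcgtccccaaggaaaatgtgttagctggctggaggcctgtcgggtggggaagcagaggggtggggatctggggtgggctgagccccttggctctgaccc
Adamts17: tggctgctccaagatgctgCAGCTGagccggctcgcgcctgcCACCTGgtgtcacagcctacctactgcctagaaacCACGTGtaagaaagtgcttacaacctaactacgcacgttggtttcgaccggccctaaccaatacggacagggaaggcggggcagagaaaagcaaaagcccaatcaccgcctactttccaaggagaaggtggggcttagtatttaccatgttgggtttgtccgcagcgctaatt
Adamts18: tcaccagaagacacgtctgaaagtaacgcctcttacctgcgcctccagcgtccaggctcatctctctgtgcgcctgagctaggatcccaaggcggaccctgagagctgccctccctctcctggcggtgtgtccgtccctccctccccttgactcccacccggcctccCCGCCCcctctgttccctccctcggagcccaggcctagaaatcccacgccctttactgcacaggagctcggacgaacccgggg

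The motifs were the E-box (CANNTG), the GC box (GGGCGG), the TATA box (TATAAA), the AP-1 site (TGANTCA) and the TEAD site (GGAATG), searched on both strands. No matches overlapped. Adamts12 held 1 E-box and Adamts17 held 3, and 66.2% of all 32851 promoters in the table hold at least 1. Adamts18 held 1 GC box, which 32.7% of the promoters hold. None of the 3 windows held the letters of the TATA box, the AP-1 site or the TEAD site, which occur in 12.4%, 6.75% and 12.6% of the promoters. The windows were richer in G and C than the median promoter (52.4%), at 63.2% for Adamts12, 54.4% for Adamts17 and 65.2% for Adamts18.

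Among the COMP cleavers, Adamts12 (GRCm38 chr15:11064790-11349231, plus strand) had a log2 fold change of 2.30 against naïve cartilage and Adamts7 one of 1.504. Without the transcript Adamts7-208, described with Adamts7, Adamts7 was at 2.05 against naïve cartilage and at 2.24 against the contralateral knees, where Adamts12 was at 2.26, and its injury effect, given below, was the larger of the pair. The level of Adamts12 was 74.7, 91.5 and 109 CPM in the 3 day 7 injured libraries. Naïve libraries ran from 15.95 to 23.7 CPM with a median of 17.96 CPM, and contralateral libraries of day 7 held 14.9, 19.9 and 22.5 CPM. The lowest injured library at day 7 was thus far above the highest of any other group, which was a day 1 injured library at 26.1 CPM. The level was 4.94-fold that of naïve cartilage (log2 fold change 2.30, SE 0.147, edgeR FDR = 3.23e-08). Against the contralateral knees the log2 fold change was 2.26 (SE 0.195, FDR = 4.68e-07), and it was 2.14 without the contralateral library that stood apart.

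Adamts7 (chr9:90163069-90208071, plus strand), the other COMP cleaver, was measured at 14.5, 15.1 and 18.7 CPM in the day 7 injured libraries. Naïve libraries held 4.70 to 6.76 CPM with a median of 5.85 CPM, and the contralateral libraries of day 7 held 8.27, 6.45 and 5.89 CPM. The injured libraries did not overlap those of any other group. The change was 2.84-fold against naïve cartilage (log2 1.504, SE 0.153, FDR = 3.08e-06) and 2.38-fold against the contralateral knees (log2 1.25, SE 0.192, FDR = 1.59e-04; 1.42 without the library that stood apart). Part of this gene overlaps Tbc1d2b on the other strand, which has 57406 estimated counts over the 18 libraries. The transcript Adamts7-208 shares 122 bases with exons of Tbc1d2b, and the strand setting of the pseudo-alignment is not given in the sources used here. Without this transcript the log2 fold change of Adamts7 was 2.05 against naïve cartilage (FDR = 2.00e-05) and 2.24 against the contralateral knees (FDR = 8.10e-05).

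In the microfibril pair the members differed. Adamts6 (chr13:104287835-104496695, plus strand) held 16.9, 19.4 and 18.8 CPM in the day 7 injured libraries. Naïve libraries ran from 7.42 to 11.7 CPM with a median of 8.92 CPM, and contralateral libraries of day 7 held 7.57, 6.89 and 7.96 CPM. Again no library of another group reached the injured ones. Adamts6 rose 2.05-fold against naïve cartilage (log2 1.04, SE 0.137, FDR = 4.29e-05) and 2.48-fold against the contralateral knees (log2 1.31, SE 0.162, FDR = 1.96e-05). The log2 fold change against the contralateral knees was 1.34 without the library that stood apart. Against naïve cartilage it went from 0.71 to 1.12 over all alternatives run.

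Adamts10 (chr17:33524204-33553782, plus strand), the homologue of Adamts6, held 30.0, 26.9 and 31.8 CPM in the day 7 injured libraries and 19.4 to 33.7 CPM (median 24.5) in naïve libraries. Those groups overlapped, whereas the contralateral libraries of day 7 lay close together at 24.7, 24.1 and 24.5 CPM, below each injured library, as for 18.3% of all genes. The log2 fold change was 0.20 against naïve cartilage (SE 0.151, 95% interval -0.12 to 0.52, FDR = 0.331) and 0.29 against the contralateral knees (SE 0.169, 95% interval -0.07 to 0.64, FDR = 0.265; 0.32 without the library that stood apart, FDR = 0.296). Neither passed the test, and the first interval covers changes from 0.921-fold to 1.44-fold. The log2 fold change against naïve cartilage ran from 0.13 to 0.29 on leaving out 1 library. Over all alternatives run it went from -0.006 to 0.29, so its sign was not stable.

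Adamts17 (chr7:66839735-67153171, plus strand), the other gene linked to Weill-Marchesani syndrome, was a low gene. It held 5.18, 4.07 and 5.85 CPM in the day 7 injured libraries, from 114, 65 and 127 estimated counts. Naïve libraries held 0.985 to 2.49 CPM (median 1.65) and contralateral libraries of day 7 held 2.58, 1.65 and 1.70 CPM. The groups did not overlap. The change was 2.93-fold against naïve cartilage (log2 1.55, SE 0.233, FDR = 1.37e-04). Against the contralateral knees the log2 fold change was 1.39 (SE 0.293, FDR = 0.00262; 1.62 without the library that stood apart), and it was 1.10 and no longer called (FDR = 0.0748) when transcript lengths entered the fit as an offset.

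Adamts16 (chr13:70727802-70841811, minus strand) had the largest change of the 7. In naïve cartilage it was low, at 0.714 to 1.999 CPM with a median of 0.895 CPM, from 13 to 57 estimated counts per library. In the day 7 injured libraries it reached 13.998, 14.8 and 20.6 CPM, from 308, 237 and 447 counts. The contralateral libraries of day 7 held 0.936, 0.712 and 1.43 CPM, so that the lowest injured library at day 7 was well above every other library. Adamts16 rose 15.7-fold against naïve cartilage (95% interval 10.1 to 24.3, log2 3.97, SE 0.297, FDR = 1.60e-07) and 15.8-fold against the contralateral knees (log2 3.98, SE 0.402, FDR = 2.25e-06; 3.95 without the library that stood apart). Its log2 fold change lay above 99.9% of those of all genes tested against naïve cartilage. The antisense genes Gm36607 and Gm36529 lie across parts of Adamts16 and share no exon bases with its transcripts, and they held 0 and 145 estimated counts over the 18 libraries.

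Adamts18 (chr8:113697126-113848738, minus strand), the homologue of Adamts16, held 3.23, 5.26 and 4.97 CPM in the day 7 injured libraries and 2.82 to 4.27 CPM (median 3.50) in naïve libraries. Contralateral libraries of day 7 held 2.03, 2.80 and 4.05 CPM, and the highest value of all was 5.73 CPM in a day 1 injured library. All groups overlapped. The log2 fold change was 0.38 against naïve cartilage (SE 0.208, 95% interval -0.06 to 0.83, FDR = 0.179) and 0.58 against the contralateral knees (SE 0.271, 95% interval 0.01 to 1.15, FDR = 0.154; 0.41 without the library that stood apart, FDR = 0.356), and neither passed the test. On leaving out 1 library the log2 fold change against naïve cartilage ran from 0.25 to 0.58.

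At day 1, none of the 7 genes was called in the injured knees. No gene of 21129 was called against naïve libraries (0% in either direction) or against the contralateral libraries of day 1 (0%) by edgeR, although 959 and 1383 genes had an unadjusted p under 0.05. DESeq2 called 15 genes against naïve libraries, none of them one of the 7. Adamts12 had the smallest p of the 7. It held 24.2, 17.02 and 26.1 CPM in the injured libraries and 12.9, 16.2 and 16.4 CPM in the contralateral libraries of day 1, with no overlap, as for 4.37% of all genes (log2 0.57, SE 0.179, 95% interval 0.19 to 0.95, FDR = 0.755). Adamts16 held 1.53, 0.876 and 1.29 CPM in those injured libraries and 0.394, 1.18 and 0.733 CPM in the contralateral ones, which overlapped (log2 0.68, SE 0.404, FDR = 0.785). The 95% intervals of the other 5 genes in this comparison all included 0 and ran at most from -0.46 to 0.96 on the log2 scale.

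The contralateral knees gave no call against naïve ones. No gene passed between contralateral and naïve libraries at day 1 or day 7 by edgeR (0% in either direction in both), with 554 and 3220 genes at an unadjusted p under 0.05. DESeq2 called 2 and 31 genes. The log2 fold changes of the 7 genes ran from -0.48 for Adamts16 to -0.01 for Adamts10 at day 1, and from -0.29 for Adamts6 to 0.24 for Adamts7 at day 7. Without the day 7 library that stood apart, those of day 7 were -0.30 for Adamts6, -0.11 for Adamts10, -0.03 for Adamts18, 0.09 for Adamts7 and 0.16 for Adamts12, and they turned from 0.15 to -0.07 for Adamts17 and from -0.03 to 0.03 for Adamts16. Without Adamts7-208, Adamts7 turned from -0.11 to 0.06 at day 1 and from 0.24 to -0.20 at day 7, and none of these values was called.

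The injury effect, which is the injured knee against the contralateral knee of the same day, was compared between the days in a single contrast. It was called larger at day 7 for 4 of the 7 genes, and smaller for none, where 3.53% of 21262 genes were called higher, 0.245% lower and 3.77% in either direction. The log2 difference was 3.29 for Adamts16 (SE 0.565, FDR = 0.00230), 1.69 for Adamts12 (SE 0.267, FDR = 0.00117), 1.03 for Adamts6 (SE 0.226, FDR = 0.0133) and 1.05 for Adamts7 (SE 0.270, FDR = 0.0351). Adamts17 had a difference of 1.22 that did not pass the test (SE 0.418, FDR = 0.125), and those of Adamts10 and Adamts18 were 0.15 and 0.12. The call on Adamts7 was lost on leaving out any of 9 of the 12 libraries in turn, with a log2 difference of 0.82 to 1.11 and an FDR of 0.0507 to 0.142 (replicates 1 and 3 of the day 1 contralateral group, replicates 1, 2 and 3 of the day 1 injured group, replicates 2 and 3 of the day 7 contralateral group, and replicates 2 and 3 of the day 7 injured group). Without Adamts7-208 it was 2.12 (FDR = 0.00959). With transcript lengths as an offset, neither Adamts7 (0.85, FDR = 0.232) nor Adamts6 (0.89, FDR = 0.0975) was called, and Adamts7 was not called in a fit of only the groups compared (1.05, FDR = 0.0775). Without the day 7 library that stood apart the same 4 genes were called, at 3.26 for Adamts16 (FDR = 0.00468), 1.58 for Adamts12 (FDR = 0.00220), 1.07 for Adamts6 (FDR = 0.0174) and 1.23 for Adamts7 (FDR = 0.0138). Adamts17 was then at 1.46 (FDR = 0.0575), Adamts10 at 0.18 and Adamts18 at -0.04.

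**Figure D2:**
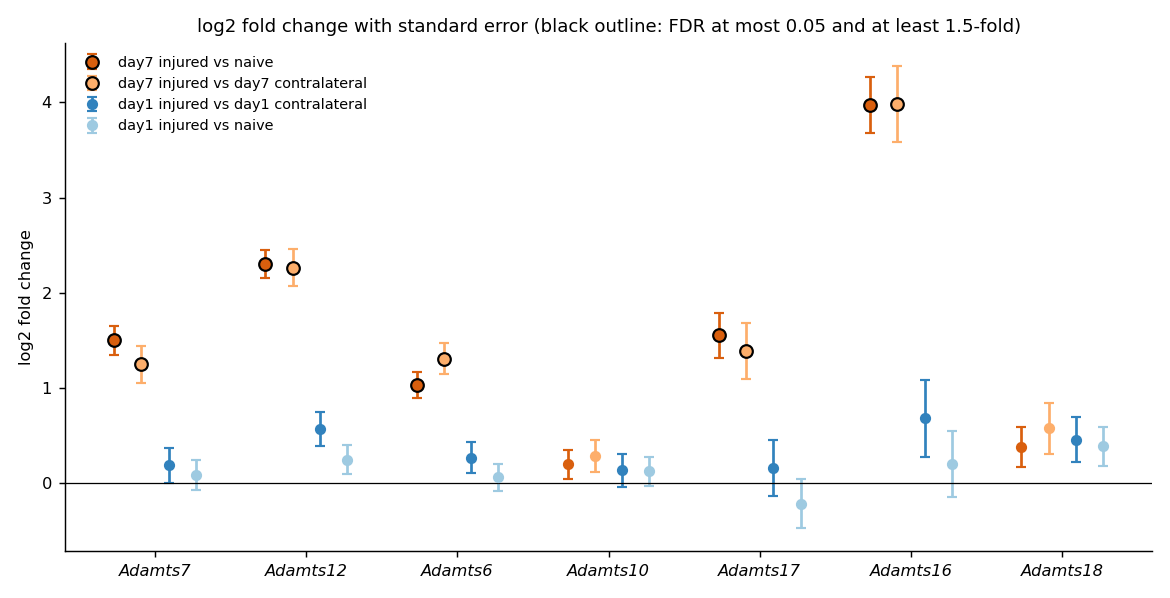
Log2 fold change (vertical axis) of the 7 genes in 4 comparisons, with the standard error as bars. Black outlines mark calls (FDR no higher than 0.05, change 1.5-fold or more). Outlined points occur at day 7 for 5 genes in both comparisons, from 1.04 for Adamts6 to 3.98 for Adamts16, and nowhere at day 1.

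The ratio between the members of a pair was compared as well. The log2 ratio of TPM, kallisto's unit of transcript abundance, which is scaled by length, was taken within each library and compared between day 7 injured and naïve libraries by a 2-sided exact permutation test, with p-values adjusted over the 3 pairs. With 3 against 6 libraries the smallest p this design allows is 0.0238, which all 3 pairs reached, with an adjusted exact permutation p of 0.0238 each. It takes the 6 naïve libraries as independent: with 3 sets of naïve mice, a test of 3 against 3 could not go below 0.1, so the ratios are given as values and not as calls. The log2 ratio of Adamts16 to Adamts18 went from -1.52 ± 0.594 (SD, n = 6) to 1.86 ± 0.370 (SD, n = 3), a difference of 3.38, so that Adamts16 was the lower of the pair in naïve cartilage and the higher at day 7. Adamts6 to Adamts10 rose from -2.15 ± 0.291 to -1.44 ± 0.461, a difference of 0.71. Adamts7 to Adamts12 fell from -0.72 ± 0.200 to -1.30 ± 0.123, a difference of -0.58. Without Adamts7-208, however, that ratio went from -1.33 ± 0.200 to -1.5035 ± 0.106, a difference of -0.18 (adjusted exact permutation p = 0.143), and the groups overlapped. With all transcripts counted, in these 3 pairs the ranges of the groups did not touch, although for Adamts6 to Adamts10 the gap was small, from -1.81 in the highest naïve library to -1.75 in the lowest injured one. On leaving out any 1 of the 3 injured libraries the test cannot go below p = 0.0714, and the pairs then differed by -0.63 to -0.51, 0.44 to 0.86 and 3.21 to 3.58 by exact permutation.

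**Figure D3:**
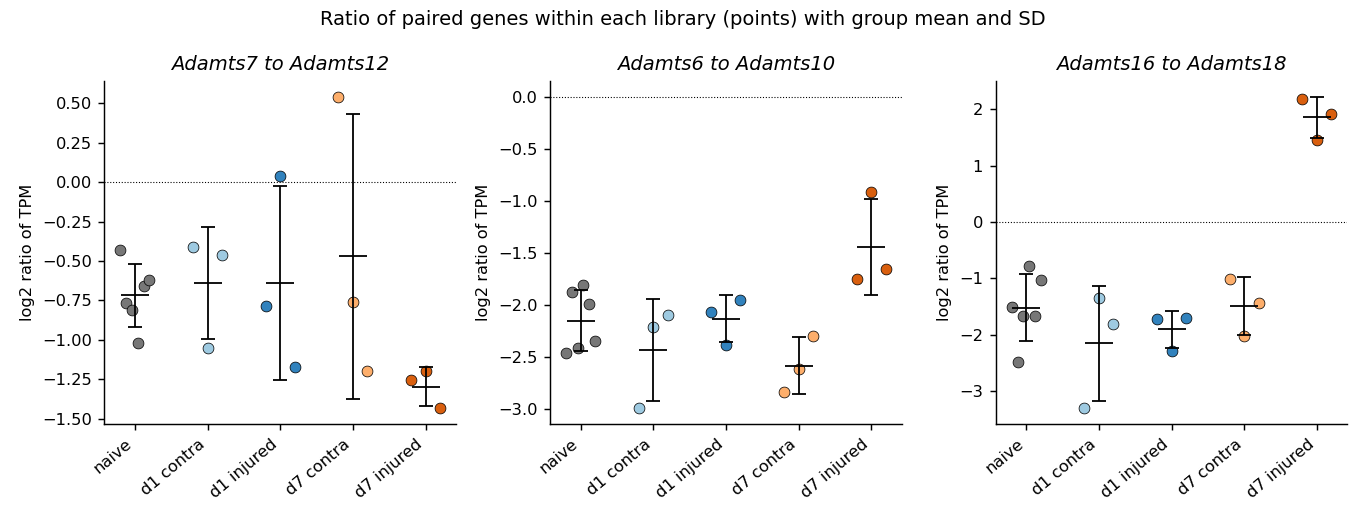
Log2 ratio of TPM of paired genes (vertical axes) within each library, by group (horizontal axes). Points are libraries and bars the mean with SD, and the dotted line marks equal levels. Adamts16 to Adamts18 lies above the line in all 3 day 7 injured libraries and below it in the other 15, and Adamts7 to Adamts12 is spread most widely in the contralateral libraries of day 7, from -1.20 to 0.54.

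Length-scaled levels put the 7 genes in an order within the family of 19 Adamts genes in the files. In naïve cartilage Adamts10 was the highest of the 7, at 5.13 ± 1.15 TPM (SD, n = 6), behind only Adamts2 at 8.29 ± 1.00 TPM. Adamts12 at 1.22 ± 0.193 TPM and Adamts6 at 1.14 ± 0.203 TPM followed and differed by less than their spread. Adamts7 stood at 0.743 ± 0.134 TPM, Adamts18 at 0.403 ± 0.0548 TPM, Adamts17 at 0.285 ± 0.126 TPM and Adamts16 at 0.141 ± 0.0584 TPM. Adamts18 and Adamts17 differed by less than the SD of Adamts17, and Adamts17 and Adamts16 by little more than it. This changed with transcripts of at least 1000 bases alone. Adamts17 was then at 0.168 ± 0.0548 TPM, below Adamts18 by more than their spread and within its SD of Adamts16. Adamts6 was then at 0.816 ± 0.193 TPM, below Adamts12 by more than their spread.

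The order changed at day 7 after injury. Adamts12 was then the highest of the 7, at 4.65 ± 1.43 TPM (SD, n = 3), with Adamts10 at 4.01 ± 0.795 TPM inside its spread. Adamts7 at 1.87 ± 0.475 TPM, Adamts16 at 1.497 ± 0.443 TPM and Adamts6 at 1.49 ± 0.376 TPM lay within the SD of Adamts7, above Adamts17 at 0.644 ± 0.113 TPM and Adamts18 at 0.418 ± 0.156 TPM. Of the 19 genes, Adamts16 moved from rank 16 to rank 11, Adamts12 from 6 to 3 and Adamts17 from 15 to 14, Adamts7 stayed at 9, and Adamts6 went from 7 to 12, Adamts10 from 2 to 4 and Adamts18 from 13 to 15. TPM is scaled to each library's total, and Adamts10 was lower at day 7 in TPM where it was slightly higher in normalized CPM. Short transcripts carry much TPM on few reads: with transcripts of at least 1000 bases alone, Adamts10 held 3.81 TPM in naïve and 3.38 TPM in day 7 injured cartilage, and Adamts6 held 0.816 and 1.32 TPM. Adamts7 then held 0.596 and 1.29 TPM, below Adamts16 (1.497 TPM) and Adamts6 at day 7. Adamts17 held 0.168 and 0.413 TPM, no longer above Adamts18 at day 7 (0.418 TPM).

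**Figure D4:**
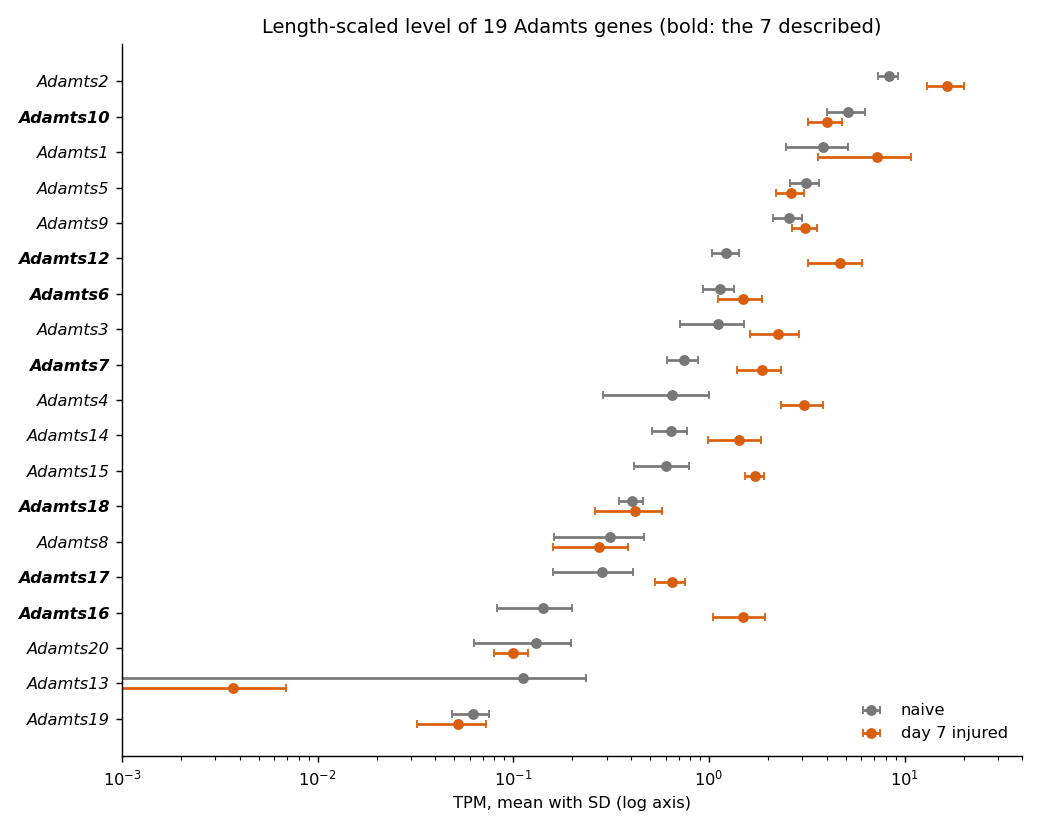
Mean TPM with SD (horizontal log axis) of 19 Adamts genes in naïve (n = 6) and day 7 injured (n = 3) libraries, ordered by the naïve mean, with the 7 genes described in bold. The bar of Adamts13 runs off the axis on the left because its SD is near or above its mean. Adamts16 shows the widest shift of the bold genes, from 0.141 to 1.497 TPM.

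The files list single transcripts, and the makeup of some genes differed between groups. The share of TPM held by the most abundant transcript was tested for 5 genes with more than 20 counts in every library, by a 2-sided exact permutation test adjusted over the 5, with the split of reads between transcripts being kallisto's estimate. The same limit from naïve libraries that share mice holds for these p-values. Transcript shares of genes other than the 7 were not tested, so the differences cannot be called particular to these genes. For Adamts10, the protein-coding transcript Adamts10-201 (4043 bases) held 16.7% ± 3.35 of the gene's TPM in naïve libraries (n = 6) and 41.9% ± 8.54 in day 7 injured ones (n = 3), a difference of 25.2 percentage points (adjusted exact permutation p = 0.0397). Its own level was 0.864 ± 0.303 TPM in naïve libraries and 1.65 ± 0.243 TPM at day 7, while Adamts10-207, a transcript annotated as subject to nonsense-mediated decay, was at 0.865 ± 0.395 and 0.422 ± 0.365 TPM. The gene total, which did not pass the test, was thus a sum of transcripts in different proportions.

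For Adamts7, Adamts7-208 held 34.4% ± 9.09 of TPM in naïve libraries and 13.5% ± 1.08 at day 7 (adjusted exact permutation p = 0.0397). Its own level was 0.254 ± 0.0834 TPM in naïve and 0.251 ± 0.0623 TPM in day 7 injured libraries, whereas the protein-coding Adamts7-201 was at 0.0935 ± 0.0777 and 0.540 ± 0.280 TPM. The retained-intron transcript Adamts7-206, of 706 bases, was at 0.148 TPM in naïve and 0.577 TPM in day 7 injured libraries, from 22.2 and 41.4 summed counts. Adamts12-201, the single protein-coding transcript of Adamts12, held 90.3% ± 5.30 and 98.0% ± 0.871 (adjusted exact permutation p = 0.0397). For Adamts6, Adamts6-205 (745 bases, annotated as subject to nonsense-mediated decay) held 28.7% ± 5.86 and 8.98% ± 13.3 (adjusted exact permutation p = 0.0595) from 51.3 and 10.6 summed counts, and its day 7 values ran from 0% to 24.3% against 22.6% to 38.4% in naïve libraries. The shares of Adamts10-201, Adamts7-208 and Adamts12-201 no longer passed on leaving out any 1 of the 9 libraries other than naïve replicate 5 (adjusted exact permutation p of 0.0595 to 0.119). With 1 library fewer, however, the smallest p that the test allows is higher. Those p-values therefore cannot tell whether a share rests on 1 library, and the differences themselves are given at the end. Adamts18-201 held 46.7% ± 11.9 and 59.5% ± 8.41 (adjusted exact permutation p = 0.190). In Adamts17, the short Adamts17-207 (702 bases) carried 35.5% of TPM on 5.45% of the counts, and the protein-coding Adamts17-201 (6025 bases) carried 37.0% on 67.4%. Adamts17-201 was at 0.123 ± 0.0522 TPM in naïve and 0.180 ± 0.0969 TPM in day 7 injured libraries. The protein-coding Adamts6-203 (6480 bases) was at 0.173 ± 0.0905 and 0.410 ± 0.0509 TPM, and the retained-intron Adamts18-207 (3524 bases) at 0.122 ± 0.0312 and 0.103 ± 0.0328 TPM, neither of which was tested. Adamts16-201, protein-coding, held 905.5 of the estimated counts at day 7 against 83.9 over the 6 naïve libraries.

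**Figure D5:**
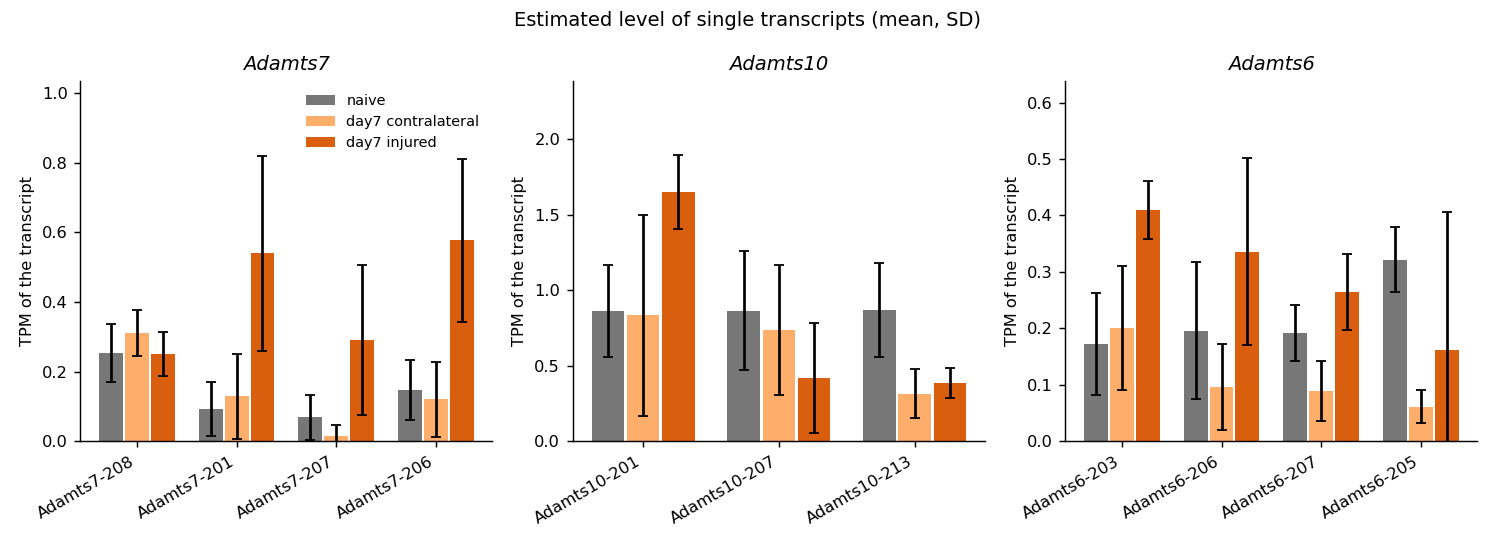
Mean TPM with SD (vertical axes, from 0) of named transcripts of Adamts7, Adamts10 and Adamts6 in naïve (n = 6), day 7 contralateral (n = 3) and day 7 injured (n = 3) libraries. Adamts10-201 was higher and Adamts10-207 lower on average at day 7 after injury, and Adamts7-208 was near 0.25 TPM in naïve and injured libraries. Error bars below 0 are not drawn.

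Other genes of the same family were also higher. Of the 12 other Adamts genes, 11 were tested against naïve cartilage and 7 were called higher and 0 lower, with a median log2 fold change of 1.16 where the median over all genes was -0.04. Among the aggrecanases, Adamts4 rose from 5.38 ± 2.83 to 31.1 ± 3.94 CPM (log2 2.55, SE 0.467, FDR = 7.75e-04) and Adamts15 from 5.70 ± 1.97 to 20.9 ± 1.78 CPM (log2 1.89, SE 0.308, FDR = 2.80e-04). The procollagen peptidases Adamts3 (log2 1.47, SE 0.159, FDR = 5.38e-06) and Adamts14 (log2 1.47, SE 0.183, FDR = 2.38e-05) rose too. Adamts5, the main aggrecanase of mouse cartilage, was at 65.7 ± 11.2 CPM in naïve and 67.6 ± 3.40 CPM in day 7 injured libraries (log2 0.06, FDR = 0.734). Adamts19, the homologue of Adamts17, was at 0.522 ± 0.0977 and 0.558 ± 0.158 CPM (log2 0.13, FDR = 0.764).

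The ADAMTS-like genes encode relatives without the protease domain, several of which bind fibrillin. Of 7 tested, 3 were called higher against naïve cartilage and 0 lower, with a median log2 fold change of 0.32. These were Adamtsl1 (8.45 ± 1.73 to 27.1 ± 3.90 CPM, log2 1.70, FDR = 4.53e-06), Adamtsl4 (log2 1.42, FDR = 4.11e-06) and Adamtsl3 (log2 1.10, FDR = 0.00510). Papln was at 3.46 ± 1.30 and 1.76 ± 0.392 CPM (log2 -0.92, FDR = 0.0603).

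The next list held COMP and its partners. Comp itself went from 431 ± 110 CPM in naïve to 1115 ± 94.1 CPM in day 7 injured libraries (log2 1.39, SE 0.203, FDR = 1.04e-04), alongside its cleavers. In this list, with the thrombospondins, 6 of 11 genes were called higher and 0 lower (median log2 fold change 0.85), and Matn1, Matn3, Col9a1, Col9a2 and Col9a3 were not called. Thbs2, a thrombospondin of connective tissue, rose from 81.2 ± 17.5 to 1192 ± 220 CPM (log2 3.90, SE 0.181, FDR = 1.81e-09), and Thbs3 from 23.3 ± 4.23 to 155 ± 24.1 CPM (log2 2.76, FDR = 2.13e-09). Fn1, which encodes fibronectin (log2 1.63, FDR = 5.33e-05), and Thbs4 (log2 1.52, FDR = 0.00195) rose too. Thbs1 was the last of the 6.

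In the list of fibrillin microfibril genes, to whose proteins ADAMTS6, ADAMTS10 and ADAMTS17 are linked, 12 of 15 were called higher against naïve cartilage and 0 lower, with a median log2 fold change of 1.52. Fbn2, which encodes fibrillin-2, rose from 11.3 ± 2.34 to 237 ± 47.8 CPM (log2 4.42, SE 0.203, FDR = 1.81e-09). Fbn1, which encodes fibrillin-1, rose from 235 ± 95.2 to 1055 ± 141 CPM (log2 2.18, SE 0.307, FDR = 7.37e-05). The microfibril-associated genes Mfap2 (log2 3.50, FDR = 2.13e-09) and Mfap5 (log2 2.72, FDR = 1.87e-06) and elastin, Eln (log2 2.47, FDR = 6.45e-06), rose as well.

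Genes that activate, modify, inhibit or clear the proteases formed the last list, of which 6 of 14 were called higher and 0 lower (median log2 fold change 0.64). Pofut2, which adds the fucose to thrombospondin repeats, rose from 26.2 ± 4.50 to 89.9 ± 14.4 CPM (log2 1.80, SE 0.149, FDR = 4.43e-07), and B3glct, which extends that sugar, had a log2 fold change of 0.86 (FDR = 1.20e-06). Pcsk5, a convertase that cuts precursors, rose by a log2 of 1.28 (SE 0.398, FDR = 0.0247). Timp2 rose from 234 ± 44.2 to 984 ± 246 CPM (log2 2.09, FDR = 1.20e-06). In contrast Timp3, the tissue inhibitor most active on ADAMTS proteases, was at 258 ± 48.5 and 237 ± 33.3 CPM (log2 -0.09, FDR = 0.674). Grn, whose product progranulin opposes the cutting of COMP by ADAMTS7 and ADAMTS12, was at 202 ± 52.0 and 297 ± 8.42 CPM, a change under 1.5-fold (log2 0.58, SE 0.189, FDR = 0.0318). Timp1 varied widely between naïve libraries (23.5 ± 34.5 CPM) and did not pass the test (log2 1.52, SE 0.960, FDR = 0.250).

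Markers of other cell types moved in the same libraries, and their part in the changes above was not tested. Of 8 fibroblast and synovium markers, 5 were called higher at day 7 against naïve cartilage (Col3a1, Col1a1, Thy1, Pdgfra and Cd34) and 0 lower, Pi16 (log2 0.11), Dpp4 (log2 -0.08) and Clic5 (log2 -0.25) were not called, and none of the 8 was at 0 in any library. Their summed level ran from 10606 to 18308 CPM in naïve, 8246 to 10269 CPM in day 1 contralateral and 12463 to 22340 CPM in day 1 injured libraries. It was 56571, 16944 and 23487 CPM in the contralateral libraries of day 7 and 73626, 68398 and 79234 CPM in the injured ones. Col1a1 was the most abundant in every library. Without the collagens Col1a1 and Col3a1 the sum was 265 to 387 CPM in naïve libraries and 477, 553 and 564 CPM in day 7 injured ones, of which Pdgfra made up 84.7 to 118.8 CPM and 202, 259 and 282 CPM. In the contralateral library of day 7 at 56571 CPM, Col1a1 made up 52510 CPM. Its sum without Col1a1 and Col3a1 was 323 CPM, of which Pdgfra made up 114 CPM, both within the naïve range. This library had 14.9 CPM of Adamts12 and 0.936 CPM of Adamts16, within or below the naïve range. It also had 8.27 CPM of Adamts7 and 2.58 CPM of Adamts17, above each naïve library and the highest of the 15 libraries other than the day 7 injured ones. For Adamts7 this rested on Adamts7-208, which held 80.5 of its 106 estimated counts there. Without that transcript 26 counts of Adamts7 were left, fewer than the 49 to 121 of the naïve libraries. The levels of Adamts6 (7.57 CPM), Adamts10 (24.7 CPM) and Adamts18 (2.03 CPM) in this contralateral library were not above the naïve range.

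Of the endothelial markers 4 of 6 were called higher (summed level 276 ± 19.98 CPM in naïve and 431 ± 44.2 CPM in day 7 injured libraries, Pecam1 the most abundant in 17 of 18 libraries), and of the mural and smooth muscle markers 3 of 6 (550 ± 129 and 810 ± 102 CPM). Erythroid markers were lower, 4 of 5 called, at 21350 ± 2072 and 13790 ± 3139 CPM, and 2 of 6 neutrophil markers were called lower. No macrophage, skeletal muscle or proliferation marker was called in either direction. Of the chondrocyte markers, Acan and Comp were called higher and Chad lower, with a summed level of 4734 ± 1235 CPM in naïve and 6673 ± 392 CPM in day 7 injured libraries. Of the osteoblast and osteocyte markers Ibsp was called higher, of the osteoclast markers Ctsk was called higher, and of the adipocyte markers Cfd was called lower.

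Genes whose levels were most like those of each member are given as a description, from Pearson's r of log2 CPM over the 18 libraries among 15986 genes with a mean of at least 1 CPM. The libraries share their groups, and r was also taken after group means were removed. It then ran from 0.60 to 0.91 for the genes nearest to Adamts7, Adamts12, Adamts6, Adamts17 and Adamts16, lower in each case, while for those nearest to Adamts10 and Adamts18 it moved little (0.83 for Pced1a and 0.89 for Sorbs2). Adamts12 and Adamts16 had the same nearest gene, Loxl2, a lysyl oxidase that cross-links collagen (r = 0.99 for each). Col6a1 and Twsg1 followed for Adamts12, and Wls and Col6a2 for Adamts16. Adamts6 was nearest to Gpr176 (r = 0.98), Arhgef40 and Ndrg4. Adamts7 was nearest to Cdc42bpb, P3h3 and Pofut2 (r = 0.97 each), the last being the fucose transferase named above. Adamts17 was nearest to Plxna3 (r = 0.93), Mbtps1 and Mfap2. For Adamts10 (Pced1a, r = 0.85; Nmrk1 and Gm16754 next) and Adamts18 (Sorbs2, r = 0.89; Itih2 and Plpbp next) the closest genes were less alike. Among the 7 themselves, Adamts12 and Adamts16 were the most alike (r = 0.97), and this fell to 0.62 once group means were removed.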

How the data were processed

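The authors trimmed the reads and pseudo-aligned them with Kallisto to a mouse transcriptome that the methods name as GRCm38 (the submitters' processing notes name GRCh38). They deposited estimated counts, TPM and effective lengths per transcript for 18 libraries. By the study's methods, a sample with a low rate of mapped reads was left out of its analysis. The labels do not say whether that sample is among the 18 libraries. Of 137436 transcripts, 135107 (98.3%) matched GENCODE M21 of GRCm38 by identifier without version. All 52 transcripts of the 7 genes had the annotated length. Estimated counts were summed to 49184 genes and rounded. The median total was 25465706, and these depths limit counting error only. The effective lengths as deposited by the authors entered the length offset alone.

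Each test that involves the contralateral knees of day 7 used all 18 libraries, and each of the others 15, with edgeR 4.0.16 (R 4.3.3): TMM, the default filter on low counts, group means, the quasi-likelihood test and Benjamini-Hochberg adjustment. The study's methods instead allowed for libraries of shared mice through an estimated correlation in limma. That fit was not made here, because the labels do not name the mice. Calls required an FDR no higher than 0.05 and a change of 1.5-fold or more. CPM was normalized over the 18 libraries, and pair ratios used TPM + 0.01. On counts simulated with 200 genes changed 3-fold, the test called 163 of them and 5 unchanged genes for day 7 injured against naïve libraries (20789 genes), 136 and 7 for day 7 injured against contralateral libraries (20830 genes) and 116 and 5 for the injury effect at day 7 minus day 1 (20873 genes). The simulated libraries were independent of each other, so the simulation does not cover naïve libraries that share mice. Alternatives used DESeq2 1.42.0, limma-voom (limma 3.58.1), other filters, scalings and thresholds, and each library left out.

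All 7 genes are named. From each of 5 lists the 4 genes with the largest change against naïve cartilage are named, with Comp, Fbn1, Adamts5, Adamts19, Grn and Timp3, the 3 genes most alike to each of the 7, and the transcripts that are most abundant or hold at least 20% of TPM. Beyond this rule, Thbs1, B3glct, the uncalled COMP partners, Adamts10-207 and the markers were named after their values were seen. The genes and lists were chosen with earlier results of these data known.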

Additional observations from a re-analysis of the deposited data

Results flagged for a closer look

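For 4 of the 7 genes the injury effect, injured against contralateral, differed between day 7 and day 1 by the contrast of the 2 effects (edgeR, adjusted over all genes). The difference was 3.29 on the log2 scale for Adamts16, 1.69 for Adamts12, 1.05 for Adamts7 and 1.03 for Adamts6, each larger at day 7. By this contrast 3.77% of all genes tested were called in either direction. For the same 4 genes the injured libraries of day 7 lay above all their contralateral ones, as for 18.3% of all genes tested. For Adamts7 the call was lost on leaving out any of 9 of the 12 libraries in turn, with transcript lengths as an offset (0.85, FDR = 0.232) and in a fit of only the groups compared (1.05, FDR = 0.0775), and for Adamts6 with the length offset (0.89, FDR = 0.0975).

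Naïve library 4 held 1.999 CPM of Adamts16, from 57 estimated counts, where the other 5 naïve libraries held 0.714 to 1.07 CPM. In naïve library 2, Adamts12-201 held 80.0% of the gene's TPM, the lowest share of the 6. Both were far from the other naïve libraries by Dixon's criterion, which flags about 1 in 20 groups by chance, and 15 sets of naïve values were looked at. Leaving out naïve library 4 kept the call on Adamts16.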

How the results depend on the processing

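The log2 fold changes of Adamts7, Adamts12, Adamts6, Adamts17 and Adamts16 at day 7 kept their direction under every alternative run, and their calls against naïve cartilage, contralateral knees and day 1 injured knees were kept in all but 1, the length offset for Adamts17 against the contralateral knees. The values are estimates of transcript abundance, and depth limits Adamts16 and Adamts17 most, at 13 to 57 counts of Adamts16 in naïve libraries. No paired analysis was possible because the labels do not say which libraries share mice. The naïve libraries are likely to share mice, and an exact permutation test of 3 against 3 cannot go below 0.1. Without Adamts7-208 the pair ratio difference of Adamts7 to Adamts12 was -0.18 (adjusted exact permutation p = 0.143). Adamts7 without Adamts7-208, and TPM of transcripts of at least 1000 bases, were chosen after seeing the data.

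Against naïve cartilage 3498 genes were called at day 7 (6291 with no fold limit), and against day 1 injured knees 3257 (1895 at an FDR of 0.01, 5160 with no fold limit). For the injury effect at day 7 minus day 1, 802 genes were called (344 at an FDR of 0.01), of which 4 of the 7 genes described (2 at an FDR of 0.01, and 2 with the length offset). DESeq2 called 15 genes for day 1 injured against naïve, 31 for day 7 contralateral against naïve and 2 for day 1 contralateral against naïve, where edgeR called 0. Leaving out 1 library at a time gave 402 to 962 genes for the injury effect (402 without day 7 injured replicate 3, 465 without day 1 contralateral replicate 3 and 496 without day 1 injured replicate 1).

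Leaving out 1 library at a time, the pair ratio difference was -0.64 to -0.51 for Adamts7 to Adamts12, 0.44 to 0.86 for Adamts6 to Adamts10 and 3.19 to 3.58 for Adamts16 to Adamts18. Without an injured library an exact permutation test of 2 against 6 cannot go below 0.0714. The difference in transcript share was -23.7 to -19.0 percentage points for Adamts7-208, 5.62 to 8.40 for Adamts12-201, 20.3 to 27.9 for Adamts10-201 and -27.4 to -15.2 for Adamts6-205, which passed the test on leaving out naïve replicate 5 (adjusted exact permutation p = 0.0446). The first 3 did not pass it in 8 of 9 such runs (adjusted exact permutation p up to 0.119), in which the smallest p that the test allows is higher.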
